A study of Mus musculus with 9 samples.

Results

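Dbp, the gene of an output transcription factor of the circadian clock, was lower in the RAW-FoxQ1 clones than in the RAW-vector clones without overlap, and the difference was -3.08 in log2 units. It was described together with 9 further genes of the clock's output and repressor arms: Tef, Hlf, Nr1d1, Nr1d2, Per1, Per2, Per3, Cry1 and Cry2. The set was chosen by the measured difference of Dbp, which was among the largest decreases in these arrays and ranked 5 of 16492 gene rows by size of decrease, and the other genes were added by name. All 10 genes had a row. The difference between the groups is therefore part of how the set was chosen, and it is given for these 10 genes as a description with its standard error and with no p-value. A count of how many of them pass the threshold is given beside the share of all genes that do, and nothing is read from it.

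RNA came from RAW-264.7, a mouse line with monocyte and macrophage properties. The 5 RAW-FoxQ1 clones, numbered 7.1 to 7.5, carried the pEF6/V5-His vector with a fragment coding for murine FoxQ1, a forkhead transcription factor, and the 4 RAW-vector clones, numbered 4 to 7, carried the empty vector. The vector drives its insert from an elongation factor promoter that is active in most cells. Each clone grew out of a single cell, all were kept under blasticidin S at 6 µg/ml in DMEM with Glutamax and serum, and no other treatment was given. Whether the RAW-FoxQ1 clones share a founder, at what hour the cells were collected and whether they were synchronized are not given in the sources used here. Each clone was measured once, on 1 Affymetrix mouse genome array, so every error below rests on the spread between clones, which may in part be technical. An SD is that spread within a group. Standard errors and confidence intervals are those of the difference between the groups, with a variance that limma moderates over all gene rows. Values are log2 expression values of 1 row per gene, and levels are compared between clones and not between genes, apart from percentiles that only place a signal on the array.

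Foxq1 itself had log2 values of 7.27 to 7.44 in the RAW-FoxQ1 clones, against 6.94 to 7.01 in the RAW-vector clones (adjusted p = 4.72e-05, limma with Benjamini-Hochberg adjustment over all gene rows, used throughout). The mean level of 10 macrophage marker genes was 11.97 to 12.17 in the RAW-FoxQ1 clones and 12.32 to 12.60 in the RAW-vector clones. Of the 10, 5 were called lower, 0 higher and 5 were not called. Those not called were Csf1r, Cd14, Lyz2, Ptprc and Spi1, with differences between -0.14 (Ptprc) and 0.22 (Cd14). The largest of the 10 differences in size was that of Adgre1, which encodes F4/80, at -2.38 (adjusted p = 0.00140). Its value in clone 7.3, 7.14, was the lowest of the 9 clones, as was that of Dbp. The part of these markers in the differences of the clock genes was not tested. The mean levels of T cell, B cell, epithelial and fibroblast marker lists lay between 6.44 and 7.16 in the RAW-FoxQ1 clones and between 6.46 and 7.21 in the RAW-vector clones. A large share of the genes on the array differed between the groups: 21.4% of the 16492 were called lower in RAW-FoxQ1 clones and 19.6% higher at an adjusted p under 0.05. The RNA was taken from whole cultures, so that fewer cells expressing a gene and less of its RNA per cell cannot be told apart.

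The mammalian clock is a feedback loop of transcription. CLOCK and BMAL1, the product of Arntl, bind E-box sequences and switch on the Period and Cryptochrome genes, whose proteins return to the nucleus and repress CLOCK and BMAL1. The same activators drive Nr1d1 and Nr1d2, which encode the REV-ERB repressors of Arntl, and the PAR bZIP genes Dbp, Tef and Hlf, whose proteins bind D-box sequences. In macrophages, clock components are known to influence inflammatory gene expression. The arrays took 1 sample per clone at an unstated time, so the values are levels and carry no phase, period or amplitude.

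The DNA just before annotated starts of these genes shows which of the loop's binding sequences lie close to those starts. RefSeq windows of 250 bases before an annotated start, in the GRCm38.p6 build and on the strand of the gene, were at hand for 9 of the 10 genes (11 windows, with 2 each for Tef and Per1). A window can lie partly inside its gene: Dbp as annotated begins at base 45705100, within its own window. They were searched on both strands for the E-box CACGTG, the D-boxes TTATGTAA and TTACGTAA, the core of the REV-ERB and ROR sites, AGGTCA, the forkhead core TGTTTA and the cAMP response element TGACGTCA. The windows of Dbp, Tef, Per1, Per3 and Cry1 are shown, Dbp for the size of its difference and the others for the clock sequences they hold, with matches in capitals. They lie at chr7:45704997-45705246 on the plus strand (Dbp), chr15:81802423-81802672 on the plus strand (Tef, the first of 2 windows), chr11:69098699-69098948 on the plus strand (Per1, the first of 2 windows), chr4:151044666-151044915 on the minus strand (Per3) and chr10:85185055-85185304 on the minus strand (Cry1).
Dbp: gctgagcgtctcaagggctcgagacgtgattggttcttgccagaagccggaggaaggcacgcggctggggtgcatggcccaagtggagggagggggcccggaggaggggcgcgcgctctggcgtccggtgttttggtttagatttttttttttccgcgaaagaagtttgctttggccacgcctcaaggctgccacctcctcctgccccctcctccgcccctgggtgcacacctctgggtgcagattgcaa
Tef: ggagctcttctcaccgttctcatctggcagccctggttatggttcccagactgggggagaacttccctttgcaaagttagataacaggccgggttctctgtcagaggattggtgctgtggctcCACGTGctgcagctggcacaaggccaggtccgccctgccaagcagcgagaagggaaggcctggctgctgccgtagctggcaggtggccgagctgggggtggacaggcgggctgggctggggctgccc
Per1: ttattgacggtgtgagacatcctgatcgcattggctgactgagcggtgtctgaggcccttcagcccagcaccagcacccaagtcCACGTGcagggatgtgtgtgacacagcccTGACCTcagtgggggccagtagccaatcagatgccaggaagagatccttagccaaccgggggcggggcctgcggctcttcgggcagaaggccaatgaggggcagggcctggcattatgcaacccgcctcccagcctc
Per3: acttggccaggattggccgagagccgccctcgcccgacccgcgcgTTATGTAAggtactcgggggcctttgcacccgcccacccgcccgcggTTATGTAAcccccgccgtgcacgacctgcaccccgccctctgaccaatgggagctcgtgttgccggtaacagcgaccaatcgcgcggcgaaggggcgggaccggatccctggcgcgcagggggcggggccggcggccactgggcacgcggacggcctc
Cry1: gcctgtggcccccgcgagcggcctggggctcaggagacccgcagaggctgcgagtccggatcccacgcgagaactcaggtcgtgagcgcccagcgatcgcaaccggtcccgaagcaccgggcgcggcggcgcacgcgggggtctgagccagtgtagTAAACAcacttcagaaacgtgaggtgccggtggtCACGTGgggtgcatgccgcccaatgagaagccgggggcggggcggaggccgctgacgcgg

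In capitals, the Tef window has an E-box 127 bases before the start, the Per1 window an E-box at 166 bases and a REV-ERB and ROR core at 137 bases read on the minus strand (TGACCT), and the Cry1 window an E-box at 60 bases and a forkhead core at 94 bases read on the minus strand (TAAACA). The Per3 window has 2 copies of the D-box TTATGTAA, at 205 and 158 bases. The second Tef window also held an E-box, at 138 bases, the Nr1d2 window a REV-ERB and ROR core at 77 bases and the Hlf window a cAMP response element at 9 bases. None of the 6 sequences was found in the Dbp window, which says only that these letters are not in these 250 bases. Part of these bases lie inside the annotated gene. An E-box was found in 4 of the 11 windows (3 genes), against 6.02% of all 32851 RefSeq windows of the same length, and the D-box TTATGTAA in 1 of the 11 against 0.819%. For the other sequences, the shares were 2 of 11 against 14.0% for the REV-ERB and ROR core, 1 of 11 against 3952 of the 32851 windows for the forkhead core, 1 of 11 against 1.55% for the cAMP response element and 0 of 11 against 0.113% for TTACGTAA. A match is a stretch of letters and not a shown binding site.

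In the comparison of the groups, 9 of the 10 genes were called lower in RAW-FoxQ1 clones and 0 higher, beside 21.4% called lower and 40.9% called either way over all gene rows. Of these calls, that of Cry1 was lost in 8 of the 9 fits that left out 1 clone. In 7 of the 10 every RAW-FoxQ1 clone lay below every RAW-vector clone, beside 18.8% of all gene rows. The differences of the 10 genes ran from -3.08 (Dbp) to -0.04 (Hlf), with a median of -0.57 beside -0.01 over all gene rows. The poly-A controls, bacterial RNAs that are added to a sample before labelling, moved with the groups too: their mean was 8.28 ± 0.210 in the RAW-FoxQ1 clones and 8.83 ± 0.151 in the RAW-vector clones (SD, n = 5 and 4, exact permutation p = 0.0159, two-sided). With that mean as a covariate, the difference was -3.08 for Dbp, -0.72 for Tef, -0.08 for Hlf, -0.66 for Nr1d1 and -1.02 for Nr1d2, and it was -0.78 for Per1, -0.20 for Per2, -0.39 for Per3, -0.15 for Cry1 and -0.54 for Cry2. The covariate itself differs between the groups.

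**Figure D1:**
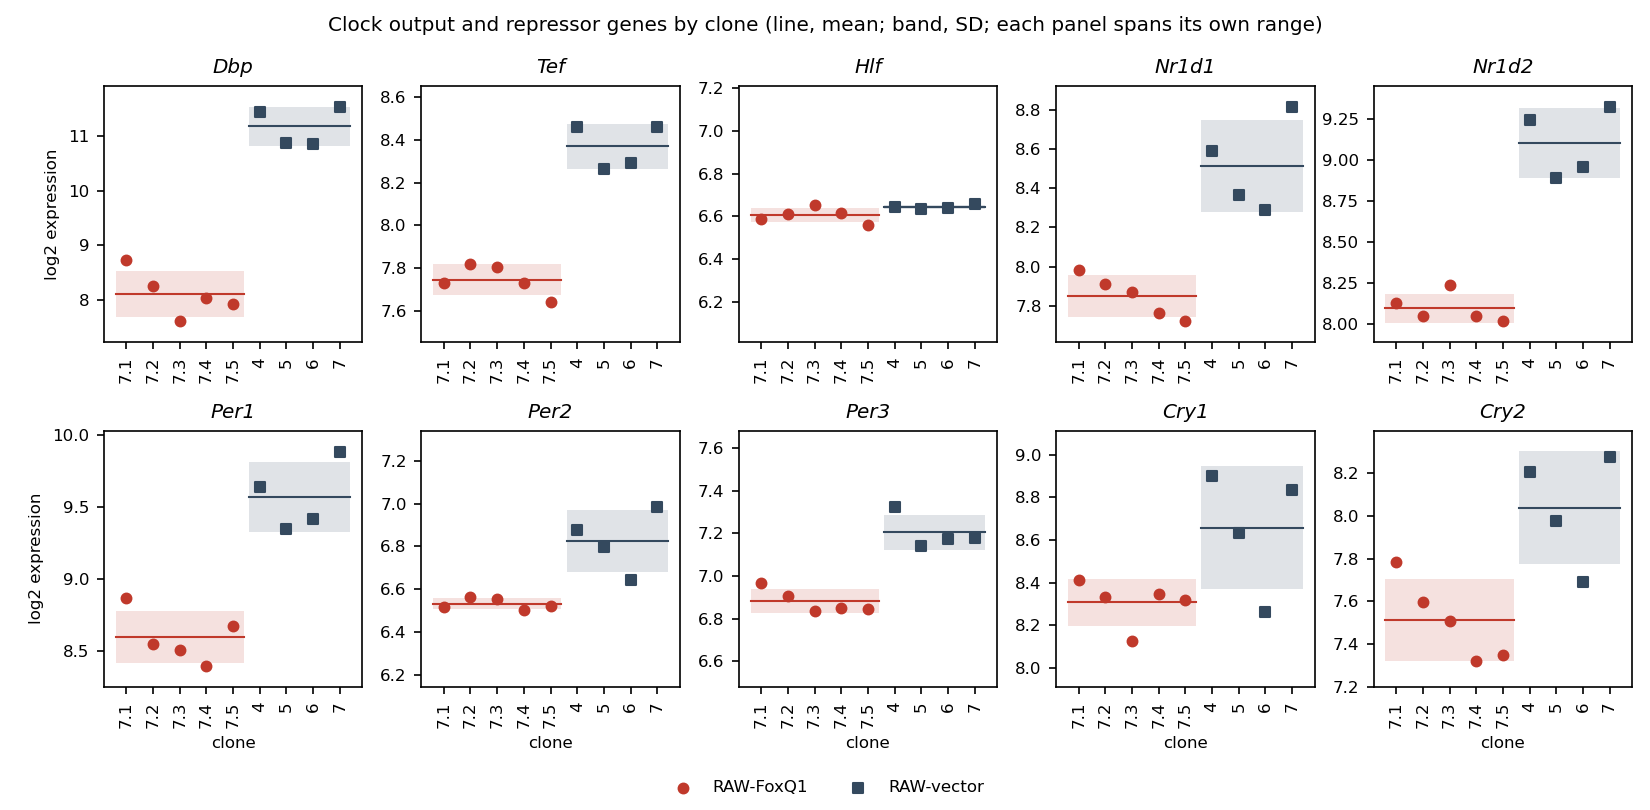
Log2 expression of the 10 clock genes (y axis, 1 panel per gene, each with its own range) in the 5 RAW-FoxQ1 clones (circles) and the 4 RAW-vector clones (squares), with the mean of each group as a line and its SD as a band. The groups lie apart for Dbp, Tef, Nr1d1, Nr1d2, Per1, Per2 and Per3, and overlap for Hlf, Cry1 and Cry2.

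Among the PAR bZIP genes, Dbp had log2 values of 8.73, 8.25, 7.60, 8.02 and 7.92 in RAW-FoxQ1 clones 7.1 to 7.5, against 11.45, 10.88, 10.87 and 11.53 in RAW-vector clones 4 to 7. The groups were far from overlapping, and clone 7.1 was the highest and clone 7.3 the lowest of the RAW-FoxQ1 clones. The mean was 8.10 ± 0.419 in RAW-FoxQ1 clones and 11.18 ± 0.359 in RAW-vector clones (SD, n = 5 and 4), a difference of -3.08 (standard error 0.229, 95% confidence interval -3.59 to -2.56) or 8.45-fold. The difference lay between -3.24 and -2.95 under the 17 alternatives tried, several of which change only the error, the rows or the threshold. Dbp was chosen by this difference, so the range is a description and not support. Tef, whose protein binds the same D-box, had values of 7.73, 7.82, 7.81, 7.73 and 7.64 in the RAW-FoxQ1 clones, against 8.46, 8.27, 8.29 and 8.46 in the RAW-vector clones. Its groups did not overlap either, and its difference was smaller than that of Dbp, at -0.62 (standard error 0.0567), or 1.54-fold. Hlf, the third gene of the family, had values of 6.59, 6.61, 6.65, 6.62 and 6.56 in the RAW-FoxQ1 clones, against 6.64, 6.63, 6.64 and 6.66 in the RAW-vector clones. Its groups overlapped, with a difference of -0.04 (95% confidence interval -0.10 to 0.03). Its mean ranked at the 18.5 percentile of the gene rows in RAW-FoxQ1 clones and at the 20.5 percentile in RAW-vector clones, so its signal lay near the bottom of the array, where a change in RNA may not show.

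Both REV-ERB genes were lower in all RAW-FoxQ1 clones than in all RAW-vector clones. Nr1d1, which encodes REV-ERBα, had values of 7.98, 7.91, 7.87, 7.76 and 7.72 in the RAW-FoxQ1 clones, against 8.59, 8.37, 8.29 and 8.82 in the RAW-vector clones. The RAW-vector clones were the more spread of the groups (SD 0.107 in RAW-FoxQ1 clones and 0.237 in RAW-vector clones), and the difference was -0.67 (standard error 0.104), or 1.59-fold. Nr1d2, which encodes REV-ERBβ, had values of 8.13, 8.05, 8.24, 8.05 and 8.02 in the RAW-FoxQ1 clones, against 9.25, 8.89, 8.96 and 9.32 in the RAW-vector clones. Its difference of -1.01 (standard error 0.0923), or 2.01-fold, was after that of Dbp the largest in size of the set.

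All 3 Period genes, whose proteins form the repressor complex with the Cryptochromes, had lower values in every RAW-FoxQ1 clone. Per1, which also responds rapidly to cAMP and glucocorticoid signals, had values of 8.86, 8.54, 8.50, 8.40 and 8.67 in the RAW-FoxQ1 clones, against 9.64, 9.35, 9.41 and 9.88 in the RAW-vector clones. Its difference was -0.98 (standard error 0.124), or 1.97-fold, and clone 7.1 was again the highest of the RAW-FoxQ1 clones. Per2 had values of 6.52, 6.56, 6.56, 6.50 and 6.52 in the RAW-FoxQ1 clones, against 6.88, 6.80, 6.64 and 6.98 in the RAW-vector clones, a difference of -0.29 (standard error 0.0609). The 5 RAW-FoxQ1 values of Per2 lay within 0.0632 of each other at a mean that ranked at the 15.3 percentile of the gene rows, and RAW-vector clone 6 came close to them. Per3 had values of 6.97, 6.91, 6.84, 6.85 and 6.84 in the RAW-FoxQ1 clones, against 7.32, 7.14, 7.17 and 7.18 in the RAW-vector clones. Its difference was -0.32 (standard error 0.0463), with means at the 31.8 percentile of the gene rows in RAW-FoxQ1 clones and the 43.3 percentile in RAW-vector clones.

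The Cryptochromes, the repressors that act on CLOCK and BMAL1 most directly, overlapped between the groups. Cry1 had values of 8.41, 8.33, 8.13, 8.35 and 8.32 in the RAW-FoxQ1 clones, against 8.90, 8.63, 8.26 and 8.84 in the RAW-vector clones. RAW-vector clone 6 lay below 4 of the 5 RAW-FoxQ1 clones, and the difference was -0.35 (standard error 0.121). The difference was -0.48 without RAW-vector clone 6 and -0.27 without RAW-vector clone 4, the extremes of the fits that left out 1 clone. Cry2 had values of 7.78, 7.60, 7.51, 7.32 and 7.35 in the RAW-FoxQ1 clones, against 8.21, 7.98, 7.69 and 8.28 in the RAW-vector clones. Here RAW-FoxQ1 clone 7.1 lay above RAW-vector clone 6 and the other clones were apart, with a difference of -0.53 (standard error 0.133), or 1.44-fold.

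The 10 genes also shared an order among the RAW-vector clones. In all 10, RAW-vector clones 4 and 7 both had higher values than clones 5 and 6, an order that 25.8% of all gene rows had, whereas the opposite order held in 28.3% of all gene rows. For Dbp the pairs stood well apart, with 11.45 in clone 4 and 10.88 in clone 5 as the nearest values. The margin was small in Per3, where clone 7 (7.18) stood beside clone 6 (7.17), and in Hlf, whose 4 RAW-vector values lay within 0.0239 of each other. Of the 74 measured pathway genes around the set, 27 had this order and 28 the opposite one. By list, it held in 8 of 13 clock outputs, 4 of 6 other clock repressors and 6 of 10 cAMP and glucocorticoid inputs. It held in 0 of 5 clock coactivators, 1 of 7 PER complex partners and 1 of 6 genes of the C/EBP list, where that gene was Nfil3. Some genes stand in more than 1 list, among them Nfil3, Ciart, Bhlhe41, Usp2 and Tsc22d3. The counts by list are therefore not independent, while the 74 hold each gene once. Of 10 macrophage marker genes 0 had this order and 8 had the opposite one. The poly-A controls did not follow it, with means of 8.75, 8.92 and 8.67 in RAW-vector clones 4, 5 and 6 and a higher one in clone 7. In the RAW-FoxQ1 clones, clone 7.1 had the highest value in 6 of the 10 genes and clones 7.3, 7.4 and 7.5 shared the lowest values (3, 3 and 4 genes). Besides Dbp, Per3 and Cry1 had both clone 7.1 as the highest and clone 7.3 as the lowest, as did the macrophage marker Adgre1. The share of all gene rows with these extremes was not counted, so nothing is read from them here or below. Both orders were noticed in the values, and genes of 1 clone share its RNA and its array, so neither was tested.

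**Figure D2:**
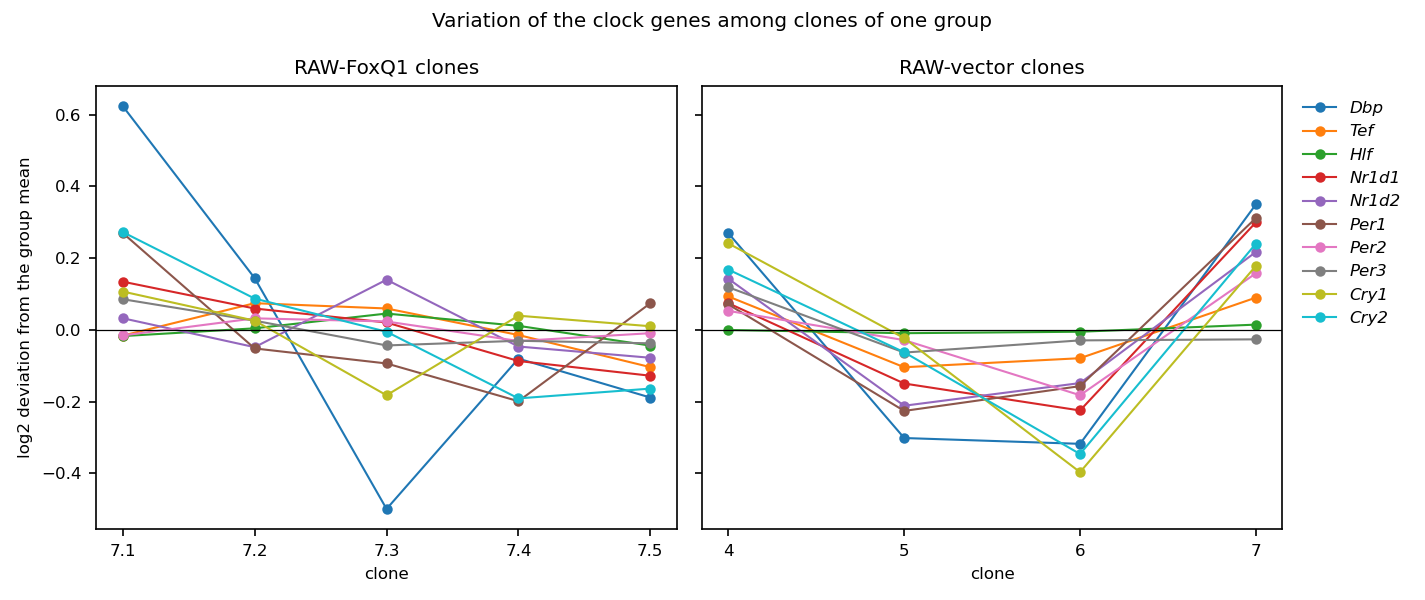
Deviation of each of the 10 clock genes from the mean of its group on the log2 scale (y axis), in the 5 RAW-FoxQ1 clones (left panel) and the 4 RAW-vector clones (right panel), with a line per gene. RAW-vector clones 4 and 7 stood above clones 5 and 6 in all 10 genes, and Dbp had its highest RAW-FoxQ1 value in clone 7.1 and its lowest in clone 7.3.

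The genes around the set in the pathway were taken from 11 lists of clock machinery, inputs and outputs, with 77 genes, of which 74 had a row. They did not move one way. Of the 74, 26 were called lower (35.1%, beside 21.4% of all gene rows), 15 higher (20.3%, beside 19.6%) and 33 were not called, and the median difference was -0.05. With the poly-A controls as a covariate, 6 were called lower and 9 higher.

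The 4 activators of the loop differed by 0.36 or less in size. Arntl, which encodes BMAL1, had values of 8.14, 8.29, 8.60, 8.13 and 8.09 in the RAW-FoxQ1 clones, against 8.04, 7.72, 7.67 and 8.12 in the RAW-vector clones. The groups overlapped, RAW-vector clones 4 and 7 again stood above clones 5 and 6, and the difference of 0.36 (standard error 0.128) was only just past the threshold (adjusted p = 0.0451, range over 17 alternatives 0.0274 to 0.599). That call was lost in 6 of the 9 fits that left out a clone, among them the one without clone 7.3, where the difference was 0.28. Clock had a difference of -0.09 (standard error 0.0874, adjusted p = 0.462) and Npas2, its relative, one of -0.05 (standard error 0.0330, adjusted p = 0.274). Arntl2, a relative of Arntl, was lower by a small amount, with a difference of -0.12 (standard error 0.0393, adjusted p = 0.0308), and its call too was lost in 6 of the 9 fits. With the poly-A covariate neither call held, with differences of 0.25 for Arntl and -0.20 for Arntl2.

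Of the ROR receptors, which compete with the REV-ERB proteins for the same sites and activate Arntl, Rora was lower. Its values were 6.39, 6.22, 6.40, 6.38 and 6.35 in the RAW-FoxQ1 clones, against 6.79, 6.59, 6.42 and 6.85 in the RAW-vector clones (difference -0.31, standard error 0.0851, adjusted p = 0.0144). RAW-vector clone 6 came within a small distance of the RAW-FoxQ1 clones, and with the poly-A covariate the difference was -0.16 and not called. Rorb, with a difference of -0.002 (adjusted p = 0.968), was not called, and both had signals near the bottom of the array.

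The other repressors fell into members that were lower and members that were higher. Bhlhe40, or DEC1, which competes for E-boxes, had values of 9.49, 8.85, 7.93, 9.03 and 9.16 in the RAW-FoxQ1 clones, against 10.45, 10.12, 9.85 and 10.48 in the RAW-vector clones (difference -1.34, standard error 0.282, adjusted p = 0.00383). Its lowest RAW-FoxQ1 value was in clone 7.3, as for Dbp, and its difference with the poly-A covariate was -0.73, which was not called. Its relative Bhlhe41, or DEC2, had a difference of -0.48 (standard error 0.0644, adjusted p = 2.42e-04), which was -0.37 and not called with that covariate, and Ciart, which encodes the repressor CHRONO, had a difference of -0.53 (standard error 0.0960, adjusted p = 0.00165). Timeless and Tipin were higher, with differences of 1.18 (adjusted p = 2.29e-06) and 1.84 (adjusted p = 2.02e-07). Their proteins form a complex that protects DNA replication forks, and the part of Timeless in the mammalian clock is less settled than that of the genes above. Nfil3, or E4BP4, the repressor that binds the same D-boxes as DBP, was named after its values were seen because it was the one gene of this list not called. Its values were 8.22, 7.93, 7.83, 8.26 and 8.22 in the RAW-FoxQ1 clones, against 8.71, 8.15, 7.95 and 8.91 in the RAW-vector clones (difference -0.34, 95% confidence interval -0.78 to 0.10, adjusted p = 0.203).

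**Figure D3:**
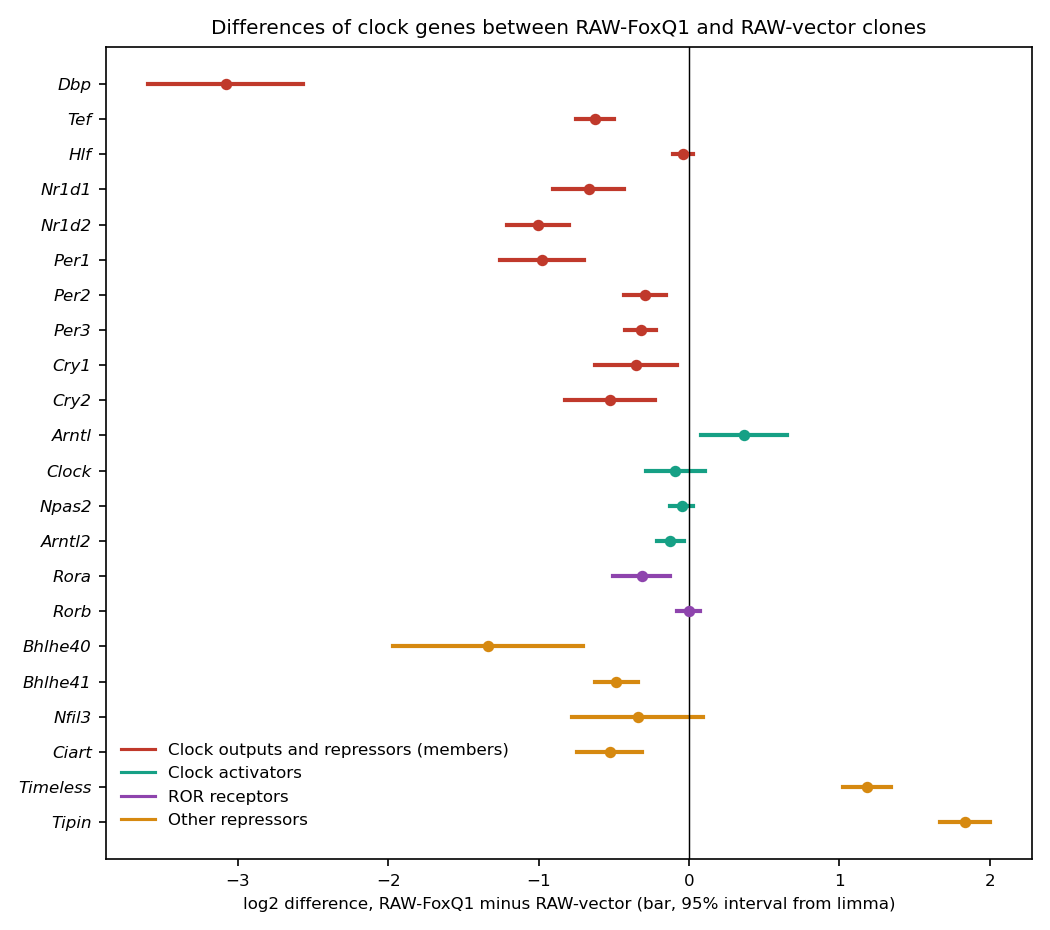
Log2 difference between RAW-FoxQ1 and RAW-vector clones (x axis, RAW-FoxQ1 minus RAW-vector, point with the 95% confidence interval from limma) for the 10 clock genes of the set and for the activators, Rora and Rorb, and the other repressors, coloured by family. Dbp stands at -3.08, the activators lie between -0.12 and 0.36, and Timeless and Tipin lie at 1.18 and 1.84.

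A list of 15 genes held kinases, ubiquitin ligases and a deubiquitinase that set the stability of the clock proteins. Of these, 6 were called lower and 1 higher, beside 21.4% and 19.6% of all gene rows. Csnk1e, the gene of casein kinase 1ε, which phosphorylates PER proteins, had the largest of these differences. Its values were 9.01, 8.77, 7.99, 8.60 and 8.47 in the RAW-FoxQ1 clones, against 10.45, 10.36, 10.09 and 10.53 in the RAW-vector clones (difference -1.79, standard error 0.184, adjusted p = 4.81e-05). The groups did not overlap, and as for Dbp the highest and lowest RAW-FoxQ1 clones were 7.1 and 7.3. Csnk2a1, the catalytic subunit of casein kinase 2, had a difference of -0.57 (adjusted p = 1.32e-04) and Fbxw11, a ligase component that recognises phosphorylated PER, one of -0.36 (adjusted p = 1.19e-04). Usp2, a deubiquitinase that is itself rhythmic, had a difference of -0.48 (adjusted p = 0.0159), which was not called without RAW-vector clone 4 (-0.42) or with the poly-A covariate (-0.20). Prkaa1, a catalytic subunit of AMPK, which phosphorylates CRY1, was higher by 0.43 (adjusted p = 0.00137).

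The corepressors and coactivators of the loop differed by 0.54 or less in size. Of the 6 REV-ERB corepressor genes, Tbl1xr1 (-0.23, adjusted p = 0.00159) and Ncor1 (-0.20, adjusted p = 0.00644) were lower, and Hdac3 (0.54, adjusted p = 1.56e-05) and Gps2 (0.36, adjusted p = 3.01e-04) were higher. HDAC3 is the histone deacetylase that NCOR1 brings to REV-ERB targets. Of 5 coactivators, Ep300 (-0.23, adjusted p = 0.0273) and Med1 (-0.14, adjusted p = 0.0185) were lower and Crebbp (0.24, adjusted p = 0.0252) was higher. Of these, Ep300 lost its call in 5 and Crebbp in 2 of the 9 fits that left out a clone. With the poly-A covariate Hdac3 and Gps2 stayed called, and Tbl1xr1 (-0.18), Ncor1 (-0.26), Ep300 (-0.03), Med1 (-0.10) and Crebbp (0.33) did not. Among 7 measured partners of the PER complex, 4 were higher and 0 lower, beside 19.6% and 21.4% of all gene rows. The RNA-binding proteins Sfpq and Dhx9 had the large differences, of 1.50 (standard error 0.221, adjusted p = 4.55e-04) and 1.50 (standard error 0.180, adjusted p = 1.26e-04). Both also serve in splicing and RNA processing outside the clock. Sin3a, with a difference of 0.27 (adjusted p = 0.0241), and Wdr5, with 0.17 (adjusted p = 0.00896), were the other partners called, and Sin3a lost its call in 4 of the 9 fits. With the poly-A covariate Dhx9 (1.58) was the one partner of the 4 still called, and the differences of Sfpq, Sin3a and Wdr5 were 1.41, 0.03 and 0.09.

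The C/EBP factors are bZIP proteins whose sites resemble the D-box. Of 6 measured genes of this list, which also holds Nfil3, 3 were lower and 0 higher, beside 21.4% and 19.6% of all gene rows. Cebpd had values of 8.94, 8.82, 9.15, 9.05 and 9.18 in the RAW-FoxQ1 clones, against 9.60, 10.24, 10.28 and 9.46 in the RAW-vector clones (difference -0.87, standard error 0.176, adjusted p = 0.00306). In this gene RAW-vector clones 5 and 6 were the high ones, the opposite of Dbp. Cebpb, a factor of inflammatory gene expression in macrophages, had a difference of -0.52 (adjusted p = 0.00175), and Cebpg one of -0.14 (adjusted p = 0.00397). None of the 3 was called with the poly-A covariate, where the differences were -0.88 for Cebpd, -0.24 for Cebpb and -0.16 for Cebpg.

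Of 10 genes of the cAMP and glucocorticoid inputs to the Period genes, 4 were lower and 3 higher, beside 21.4% and 19.6% of all gene rows. Tsc22d3, or GILZ, a glucocorticoid target with anti-inflammatory functions, had values of 8.66, 7.98, 7.43, 7.80 and 8.07 in the RAW-FoxQ1 clones, against 10.20, 9.61, 9.24 and 10.36 in the RAW-vector clones (difference -1.87, standard error 0.278, adjusted p = 4.80e-04). It shared with Dbp both the order of the RAW-vector clones, 4 and 7 above 5 and 6, and its extremes at RAW-FoxQ1 clones 7.1 and 7.3. Klf9, a transcription factor that glucocorticoids and the clock control, had values of 9.15, 9.04, 8.93, 9.05 and 8.88 in the RAW-FoxQ1 clones, against 10.26, 10.01, 9.97 and 10.33 in the RAW-vector clones (difference -1.13, standard error 0.0861, adjusted p = 8.09e-06). Nr3c1, the glucocorticoid receptor gene, had a difference of -0.64 (standard error 0.120, adjusted p = 0.00201) and Crtc3, a CREB coactivator, one of -0.28 (adjusted p = 0.00167). The list did not move one way: Sgk1, another glucocorticoid target, was higher by 0.81 (adjusted p = 3.41e-05), Creb1 by 0.22 (adjusted p = 0.0212) and Crtc2 by 0.15 (adjusted p = 0.0397). Crtc2 lost its call in 7 and Creb1 in 2 of the 9 fits that left out a clone. With the poly-A covariate Klf9, Sgk1 and Creb1 stayed called, and Tsc22d3 (-1.40), Nr3c1 (-0.41), Crtc3 (-0.27) and Crtc2 (0.19) did not.

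Of 8 genes that REV-ERB proteins repress, 1 was called higher and 1 lower, beside 19.6% and 21.4% of all gene rows. The higher was Arntl and the lower Cx3cr1, which encodes the fractalkine receptor. Cx3cr1 had values of 9.05, 9.23, 9.21, 9.44 and 9.34 in the RAW-FoxQ1 clones, against 9.58, 10.11, 10.30 and 9.46 in the RAW-vector clones (difference -0.61, standard error 0.169, adjusted p = 0.0160). It was not called without RAW-vector clone 5, where the difference was -0.53, or with the poly-A covariate, where it was -0.72. For 13 genes known as clock outputs in various tissues, the median difference was -0.21. Of them 7 were lower and 1 higher, beside 21.4% and 19.6% of all gene rows. Besides Tsc22d3, Ciart and Usp2, they held Nampt, the gene of the rate-limiting enzyme of NAD salvage, with values of 10.87, 10.72, 10.44, 10.50 and 10.41 in the RAW-FoxQ1 clones, against 11.67, 11.16, 11.12 and 11.72 in the RAW-vector clones (difference -0.83, standard error 0.152, adjusted p = 0.00169). Its RAW-vector clones had the same order as those of Dbp, and with the poly-A covariate its difference was -0.89 and not called. Wee1, a kinase that delays entry into mitosis and a CLOCK target, was the one higher, by 0.57 (standard error 0.0517, adjusted p = 2.19e-05).

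On chromosome 7, the genes next to Dbp were examined in their RefSeq order, with 5 measured genes on either side. Of these 10, 5 were lower and 0 higher, beside 21.4% and 19.6% of all gene rows, and 5 were not called. Sult2b1, a sulfotransferase gene, had a difference of -0.86 (adjusted p = 1.34e-06) and Ntn5 one of -0.76 (adjusted p = 1.51e-05). Car11, which adjoins Dbp on one side, had a difference of -0.33 (adjusted p = 2.10e-04), and Spaca4 and Sec1 had differences of -0.15 each (adjusted p = 0.0109 and 0.0412), that of Sec1 being lost in 7 of the 9 fits that left out a clone. Sphk2, the sphingosine kinase gene that adjoins Dbp on the other side and overlaps it at its end in RefSeq, was not called. Its values were 8.84, 8.84, 8.98, 8.87 and 8.94 in the RAW-FoxQ1 clones, against 8.71, 9.10, 9.10 and 8.74 in the RAW-vector clones (difference -0.02, adjusted p = 0.893). Its RAW-vector clones had the order opposite to that of Dbp. The sources used here do not say whether any probe of either gene lies in the overlap. With the poly-A covariate Sult2b1, Ntn5 and Spaca4 stayed called, and Car11 (-0.25) and Sec1 (-0.29) did not. Lmtk3, Cyth2, Mamstr and Fut2 were not called either, with differences of -0.10 (Cyth2) to 0.02 (Fut2). On the whole chromosome 307 of 1287 measured genes were called lower and 221 higher.

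**Figure D4:**
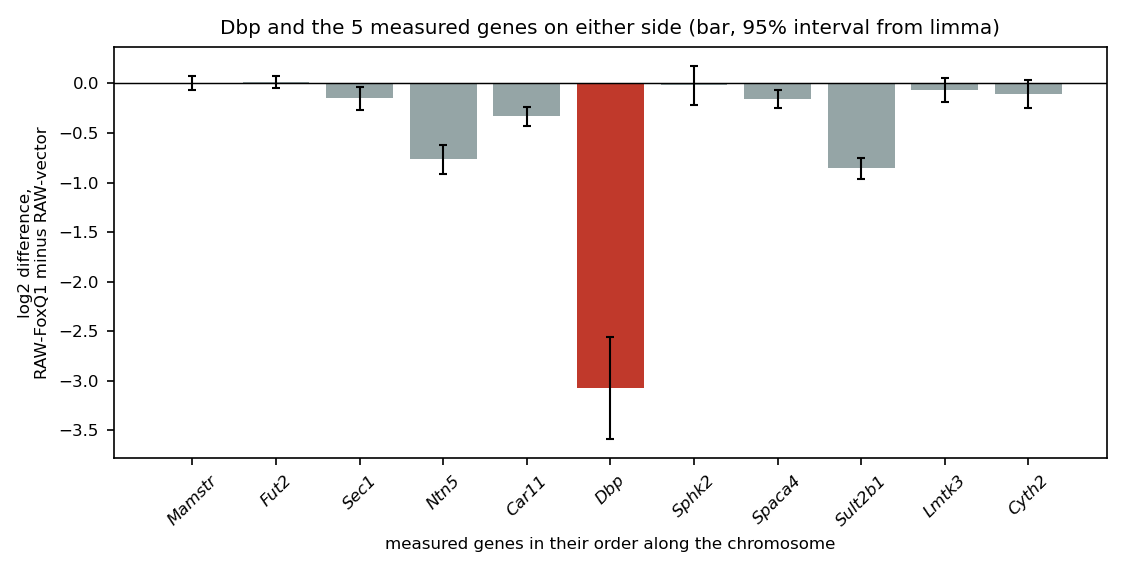
Log2 difference between RAW-FoxQ1 and RAW-vector clones (y axis, RAW-FoxQ1 minus RAW-vector, bars from 0 with 95% confidence intervals from limma) for Dbp and the 5 measured genes on either side in their order along the chromosome (x axis, not to scale). Dbp stands at -3.08, while the neighbours lie between -0.86 (Sult2b1) and 0.02 (Fut2).

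The genes whose profile over the 9 clones was nearest to that of Dbp lay outside the clock lists. Likeness was the root mean square of the difference between log2 profiles, each centred on its mean over the 9 clones. Genes with a difference of like size and a like order of clones therefore come out near. What the genes below share with Dbp is thus part of how they were picked. Tspan13, a tetraspanin gene, was the nearest at 0.184, with values of 8.14, 7.29, 6.69, 7.28 and 7.38 in the RAW-FoxQ1 clones, against 10.34, 10.04, 9.92 and 10.52 in the RAW-vector clones. It had the same highest and lowest RAW-FoxQ1 clones as Dbp and the same order of RAW-vector clones. Macrod1 (0.327), F10, the coagulation factor X gene (0.347), Acss1, a mitochondrial acetyl-CoA synthetase gene (0.364), Ddit4, an inhibitor of mTORC1 signalling (0.401), and Ephx1, an epoxide hydrolase gene (0.409), followed. Their differences lay between -2.47 (Ddit4) and -2.85 (Tspan13). Acss1 differed from the rest in its spread, with values of 6.50 to 6.58 in the RAW-FoxQ1 clones, against 9.11 to 9.34 in the RAW-vector clones. Within the set, Per1 was the nearest to Dbp at 1.07, rank 286 of all other gene rows, and Nr1d2 followed at 1.08, rank 299.

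**Figure D5:**
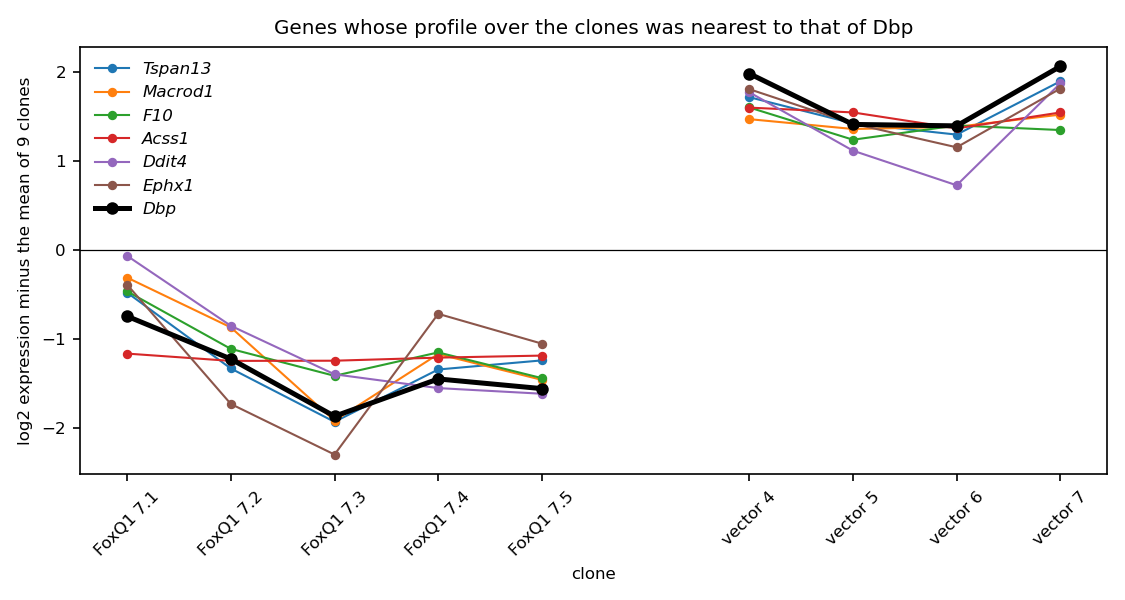
Log2 expression minus the mean of the 9 clones (y axis) for Dbp (thick black line) and the 6 genes with the nearest profiles, in the 5 RAW-FoxQ1 clones and the 4 RAW-vector clones (x axis). All 7 genes had higher values in every RAW-vector clone than in any RAW-FoxQ1 clone, and Tspan13 ran closest to Dbp at a root mean square of 0.184. The 6 genes were picked by their likeness to Dbp in these same values.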

How the data were processed

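Expression was measured in 9 clones, 5 RAW-FoxQ1 and 4 RAW-vector, on 1 Affymetrix array each. Per the methods, the authors grouped probes by Entrez gene through a custom definition file, quantile-normalized the intensities and ran a one-way ANOVA per gene at a false discovery rate of 0.05. RMA is named in the submitters' processing notes without a version. The deposited table holds log2 expression, and all 9 arrays hold one and the same set of values in different order (median 7.49), as quantile normalization leaves them. No scanner files were used here, and the number of arrays limits the precision.

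The table has 16556 rows, of which 64 hold control probe sets and were dropped. Of the 16492 gene rows, 16240 were named by Entrez ID in RefSeq (GRCm38.p6), 18 by the platform's table only, and 234 stayed unnamed. The log2 values were fitted in R 4.3.3 with limma 3.58.1 (lmFit, eBayes, the group as the only term), adjusted by Benjamini-Hochberg over all gene rows and called at an adjusted p under 0.05; of genes outside the 10, "lower" and "higher" in the text mean called in this way, for RAW-FoxQ1 minus RAW-vector. Percentiles rank a gene's group mean among all gene rows. The poly-A means of the groups were compared by a two-sided exact permutation test.

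The 10 genes, the lists and the tests were chosen with earlier results of these data known, and the lists were written from textbook knowledge. Nono, Hdac1 and Cebpe of the lists were not matched to a row. Named were all 10 genes, up to 4 called genes per direction of each list, every gene of a list with 4 or fewer, the 5 measured neighbours of Dbp on either side, the 6 genes with profiles nearest to Dbp, and Foxq1. One gene that this rule names is counted in its list and not reported here. Adgre1 and Nfil3 were added after their values were seen. Alternatives were the methods' ANOVA, a trended and robust eBayes, weighted arrays, a further quantile normalization, median centring, a filter at the 40 percentile of mean signal, a log2 difference of at least 1, the mean of 24 poly-A control probe sets as a covariate, and leaving out each clone.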

Additional observations from a re-analysis of the deposited data

Results flagged for a closer look

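Among the 68 named genes, 5 of the 136 groups of clones tested had 1 clone far from the others by Dixon's criterion, and chance alone gives about 1 in 20. None was in Dbp or the 9 genes described with it. Rora in RAW-FoxQ1 clone 7.2 had a log2 value of 6.22, below 6.35 to 6.40 in the other RAW-FoxQ1 clones. Gps2 in RAW-FoxQ1 clone 7.5 had 8.64, above 8.45 to 8.48 in the other RAW-FoxQ1 clones. Cebpg in RAW-FoxQ1 clone 7.2 had 8.11, above 8.02 to 8.04 in the others. Med1 in RAW-vector clone 4 had 8.26, below 8.38 to 8.40 in the other RAW-vector clones, and Wee1 in the same clone had 7.95, below 8.08 to 8.09.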

How the results depend on the processing

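Of the 10 genes described with Dbp, none changed direction in 167 gene and setting pairs, but the set was chosen from this contrast, so neither this nor the counts of its calls is support for a difference. With a required log2 difference of at least 1, 2 of the 10 genes (Dbp and Nr1d2), 4 pathway genes lower and 4 higher, and 0 of the neighbours stayed called. With the poly-A covariate, which itself differs between the groups, 4 of the 10 genes, 6 pathway genes lower and 9 higher, and 3 neighbours were called, while 2788 gene rows were called against 6748 without it; the cause was not tested. Leaving out each clone gave 8 to 9 of the 10 genes, 22 to 25 pathway genes lower and 11 to 16 higher, and 4 to 5 neighbours. Calls over all gene rows fell to 683 with the log2 requirement, 6330 with the methods' ANOVA and 5950 to 6645 without a clone. All changes of sign were in genes that were not called in the first place: with array weights Mamstr (-0.010) and Sphk2 (0.023), with the poly-A covariate Clock (0.12), Mamstr (-0.0080) and Cyth2 (0.015), and without a clone Rorb (range -0.021 to 0.011), Sphk2 (-0.086 to 0.043) and Mamstr (-0.0041 to 0.025). Over 1145 gene and setting pairs, 998 kept direction and call, 133 lost the call, 13 changed sign and 1 gained a call (Cyth2 without RAW-vector clone 6, -0.16). The ANOVA, the trended and robust eBayes, the filter and the log2 requirement reuse the same differences, so no sign could change there. The further quantile normalization and the median centring met arrays that were already normalized, and neither changed a call. The tally is therefore a description and not support. No paired analysis was possible because the clone numbers are not shared between the groups. Signal near the bottom of the array limits what Hlf, Per2, Rora and Rorb can show, and what Acss1 can show in the RAW-FoxQ1 clones. Per3, Npas2, Sec1, Lmtk3, Mamstr and Fut2 also had low signals and were dropped by the filter at the 40 percentile. With that filter 7 of the 10 genes were called.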
